A study of Mus musculus with 7 samples.

Results

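The genes described here are those whose mouse symbol is Tmem and a number, with or without a following letter. They were taken from the platform annotation by symbol alone, from probe sets with a single symbol, which gave 377 probe sets of 216 genes out of 18193 genes on the array. An antisense transcript and a pseudogene whose names begin the same way were left out, as were 5 probe sets annotated to several genes. Expression was measured in D3 mouse embryonic stem cells, an established line, on Affymetrix Mouse 430 2.0 arrays, with 1 array for each of 7 RNA samples. Wild type cells gave 2 samples and calreticulin knockout cells of the same D3 background gave 5, and no sample carried any labelled treatment. Each sample pooled 3 or more cultures harvested together, and the labels call the samples separate biological replicates. The sources used here do not give how many clones they came from, so a p-value measures only how much these samples vary, and a clone effect and the loss of calreticulin cannot be told apart.

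Tmem is a placeholder name. It is given to a gene when its protein is predicted to cross a membrane and no better name is at hand, so the group shares a kind of protein and no common task. Members whose work is known sit along the whole secretory and organelle system: cation channels and a folding and insertion machinery in the endoplasmic reticulum (ER), transporters of the Golgi, subunits of lipid flippases, lysosomal proteins, assembly factors of the respiratory chain, and proteins of the ciliary transition zone. Calreticulin, encoded by Calr, is a calcium-binding chaperone inside the ER that assists the folding of glycoproteins.

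The signal of a probe set is the authors' MAS5 intensity, on a linear scale and scaled within each array. Differences below are knockout minus wild type on the scale log2(signal + 20.2), where differences of dim probe sets come out too small, and come from limma fitted over all 27022 probe sets whose mean exceeded the 40th percentile. Signals of different probe sets have no common scale, so no gene is called more abundant than another. In these bulk samples, fewer cells of a type and less RNA per cell cannot be told apart. The targeted gene Calr checked the labels, although the sources used here do not give where its probes lie relative to the deleted part. Its 3 probe sets had signals of 6682 to 12460 in wild type and 486 to 1080 in knockout arrays, with limma adjusted p from 0.00595 to 0.0189. Knockout arrays 2 and 3 stood apart from the other 5. They correlated with each other at 0.985, and their log2 ratios of the 3' to the 5' Actb probe set were 0.79 and 0.89 against 1.46 to 2.08 elsewhere. The same ratio of Gapdh set them less apart, at -0.31 and -0.27 against -0.17 to 1.32. The Lys poly-A control read 15165 and 13155 in these arrays against 6749 to 8508 elsewhere. The Dap poly-A control read 18436 and 18880 against 13000 to 17390. Of 10 fibroblast or feeder cell markers, all on the array and 9 of them tested, the summed signal was 6235 and 6389 in these arrays, 725 to 1269 in the other 3 knockout arrays, and 1624 and 2217 in wild type arrays. The 10 stem cell markers summed to 85618 and 99947 in wild type arrays and to 80194 and 85262 in knockout arrays 2 and 3. In the other 3 knockout arrays the sums were 87782 to 112938, and Dppa5a alone gave 19095 to 34266 over all arrays. Pou5f1 read 4891 and 4687 in knockout arrays 2 and 3 against 8770 to 11726 elsewhere. Tdgf1 was instead higher there, at 14287 and 15929 against 10428 to 11866. The 8 endoderm markers summed to 1420 and 2552 in wild type and to 885 to 1792 in knockout arrays. Of the 6 tested, 1 had a positive difference, and 2 were lower in all 5 knockout arrays. These were Sox17 (195 and 283 against 65.2 to 158) and Sox7 (152 and 243 against 42.7 to 122), each with a limma adjusted p of 0.575. Of all tested probe sets 5.85% were lower in this way. No marker was at 0 on any array. For the main results, values without knockout arrays 2 and 3 are also given.

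Across the Tmem group, the higher signals lay in knockout arrays 2 and 3. The median tested Tmem probe set stood 0.63 and 0.60 log2 units above the wild type mean in these 2 arrays, and at 0.08, -0.01 and 0.09 in knockout arrays 1, 4 and 5. The 2 wild type arrays themselves stood at 0.06 and -0.06. Over all tested probe sets the corresponding medians in knockout arrays 2 and 3 were 0.07 and 0.14, so the Tmem medians were higher than those of the array at large in these 2 arrays. In knockout array 2, 89 of 264 tested Tmem probe sets, or 33.7%, exceeded the wild type mean by over 1 log2 unit, against 15.6% of all tested probe sets. In knockout array 3 the shares were 31.1% and 17.4%. Knockout arrays 2 and 3 gave the 2 highest of the 7 signals at 151 Tmem probe sets (57.2%, against 26.9% of all tested) and the 2 lowest at 18 (6.82%, against 20.9%). The summed fibroblast markers, Pou5f1, the Actb ratio and the Lys poly-A control moved with the same 2 arrays. Their part in the Tmem signals was not tested. Not all 10 fibroblast markers stepped: in these arrays Dcn read 552 and 555 and S100a4 841 and 725, against 13.4 to 55.6 and 20.5 to 75.4 elsewhere, whereas Col1a1 read 280 and 366 (wild type 324 and 332), Thy1 310 and 292 (405 in wild type array 1 and 403 in knockout array 4) and Lum 46.4 and 72.4 (67.7 in knockout array 1).

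**Figure D1:**
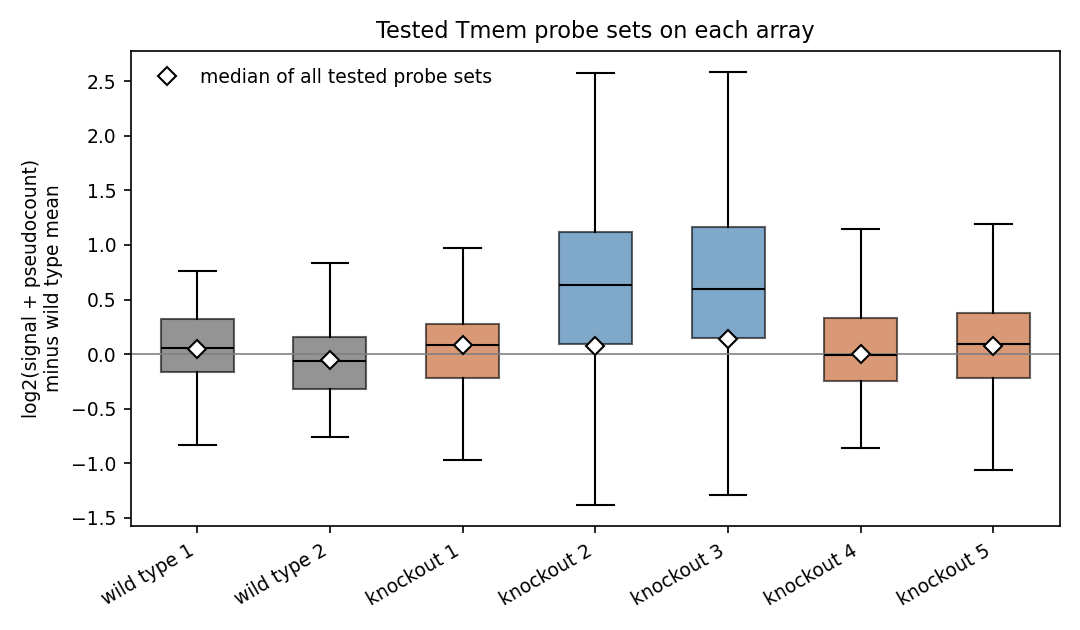
Log2(signal + 20.2) of each of the 264 tested Tmem probe sets minus its wild type mean, by array; boxes span the quartiles with the median as a line, whiskers reach at most 1.5 times the box height beyond it, and open diamonds mark the median of all 27022 tested probe sets. The boxes of knockout arrays 2 and 3 are centred at 0.63 and 0.60, while their diamonds stay at 0.07 and 0.14.

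No Tmem probe set passed the test between the groups. Of 264 tested, 0 reached an adjusted p under 0.05 in limma, where 0.0296% of all tested probe sets did, and the smallest adjusted p was 0.35. At an unadjusted p under 0.05, 14 Tmem probe sets were higher (5.3%, against a background of 5.81%) and 2 were lower (0.758%, against 2.61%). The share of higher Tmem probe sets at this limit was thus near that of the whole array. The direction of the differences was less even: 191 of 264 (72.3%) were positive with a median of 0.24 and quartiles of -0.03 and 0.55, against 55.9% positive and a median of 0.07 over all tested probe sets. A difference above 1 log2 unit was reached by 16 Tmem probe sets (6.06%, against 4.84% of all), and 0 lay below -1 (against 1.47%). Without knockout arrays 2 and 3 the Tmem median was 0.02, the median of all tested probe sets was 0.03, and the positive shares were 51.1% and 53.7%. The Tmem median was 0.13 after quantile normalization, where the median of all tested probe sets was -0.03.

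The 5 knockout arrays all lay above both wild type arrays at 25 tested Tmem probe sets of 23 genes (9.47%, against 7.8% of all tested) and all below at 3 probe sets of 2 genes (1.14%, against 5.85%). After quantile normalization the counts were 16 (6.06%, against 5.74% of all tested) and 7 (2.65%, against 7.99%). In 19 of the 25 higher ones, knockout arrays 2 and 3 carried the 2 highest signals. The matching count over all tested probe sets was not made, so this number has no background beside it. Without these 2 arrays, 30 probe sets were higher in all of knockout arrays 1, 4 and 5 and 20 were lower, or 11.4% and 7.58%, close to the 11.4% and 8.89% of all tested probe sets.

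Tmem65 had the smallest p of the group. It encodes an inner mitochondrial membrane protein of sodium and calcium exchange. One of its 2 probe sets had signals of 27.1 and 75.1 in wild type arrays and of 269, 186, 296, 234 and 207 in knockout arrays 1 to 5, so that all knockout arrays were clear of the wild type pair. Group means were 51.1 ± 33.9 (SD, n = 2) and 238 ± 44.4 (SD, n = 5), a difference of 1.93 (SE 0.32, limma adjusted p = 0.35; 1.93 and adjusted p = 0.391 without knockout arrays 2 and 3). The second probe set of Tmem65 read 505 and 609 in wild type arrays and 404 to 677 in knockout arrays. It differed by 0.02 with overlapping groups, so 1 of the 2 probe sets separated the groups.

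Tmem80, a gene of the ciliary transition zone, and Tmem126b, which encodes an assembly factor of respiratory complex I, were also separated with less weight on knockout arrays 2 and 3. The Tmem80 signals were 105 and 89.2 in wild type arrays and 209, 249, 323, 201 and 155 in knockout arrays, a difference of 1.04 (SE 0.30) that stood at 0.82 without arrays 2 and 3. For Tmem126b they were 40.3 and 70.4 against 156, 217, 190, 82.5 and 166, a difference of 1.25 (SE 0.35), or 1.02 without those arrays. The limma adjusted p was 0.575 for both. Neither gene has a second tested probe set.

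A second kind of separation was carried by knockout arrays 2 and 3, with the other 3 knockout arrays closer to the wild type pair, by a margin that differed between genes. Tmem106b, which encodes a lysosomal protein that affects lysosome size and transport, had signals of 245 and 582 in wild type arrays, of 2188 and 1995 in knockout arrays 2 and 3, and of 664, 866 and 763 in knockout arrays 1, 4 and 5 (1.54, SE 0.54; 0.97 without arrays 2 and 3). A dimmer probe set of the gene gave 44.5 and 66.6, then 282 and 352, then 182, 74.7 and 106 (1.37; 0.84 without arrays 2 and 3), so that knockout array 1 also lay well above the wild type pair. The third tested probe set of Tmem106b overlapped between the groups and differed by 0.37, or 0.06 without those arrays.

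The Golgi membrane protein genes Tmem87a and Tmem87b showed the same order of arrays. Tmem87a read 899 and 1609 in wild type arrays, 5043 and 5259 in knockout arrays 2 and 3, and 1894, 1694 and 1749 in the others, a difference of 1.16 (SE 0.53; 0.55 without arrays 2 and 3). Tmem87b read 115 and 165, then 841 and 921, then 290, 211 and 207, a difference of 1.41 (SE 0.60; 0.68 without them). With these probe sets knockout arrays 1, 4 and 5 lay much nearer to the upper wild type array than to arrays 2 and 3. The other 2 tested probe sets of Tmem87b overlapped between the groups. One read 134 and 152, then 601 and 524, then 191, 134 and 254 (0.94). The other read 186 and 776, then 1703 and 1690, then 528, 1118 and 1102 (1.51).

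Tmem30a encodes CDC50A, the beta subunit that lipid flippases need to leave the ER. One probe set had signals of 490 and 697 in wild type arrays, 2267 and 1868 in knockout arrays 2 and 3, and 711, 798 and 847 in the other 3 (0.96, SE 0.49; 0.41 without arrays 2 and 3). A dimmer one had 60.2 and 111, then 556 and 539, then 115, 120 and 150 (1.30, SE 0.64; 0.53 without them). Knockout array 1 exceeded the higher wild type array only narrowly with either probe set.

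Tmem41b is an ER lipid scramblase gene of autophagosome formation. The probe set that separated the groups gave 86.3 and 180 in wild type arrays and 182, 378, 377, 197 and 222 in knockout arrays 1 to 5 (0.93, SE 0.38; 0.59 without arrays 2 and 3). Knockout array 1 exceeded the higher wild type array only narrowly. The other tested probe sets of Tmem41b overlapped, with differences of 0.32 to 0.87, or -0.11 to 0.44 without arrays 2 and 3. Tmem168 gave 173 and 220 against 232, 1262, 1266, 274 and 278 (1.26, SE 0.69; 0.38 without them), and its other 2 tested probe sets, which overlapped, differed by 1.21 and 0.79. Tmem185b gave 448 and 523 against 626, 1624, 1752, 528 and 720 (0.91, SE 0.49; 0.34 without them). For Tmem168 and Tmem185b the step between arrays 2 and 3 and the rest was far larger than the step between wild type and the other knockout arrays.

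On the lower side stood Tmem107, a gene of the ciliary transition zone, with 2 of its 3 tested probe sets. The signals of one were 2372 and 2232 in wild type arrays and 1270, 1104, 927, 1933 and 1703 in knockout arrays (-0.77, SE 0.33; -0.51 without arrays 2 and 3). Those of the other were 683 and 565 against 471, 248, 243, 442 and 395 (-0.81, SE 0.33; -0.50 without them). Both probe sets placed knockout arrays 2 and 3 lowest. The third probe set of Tmem107 overlapped and differed by -0.31. The remaining probe set with all knockout arrays below belonged to Tmem170, at 496 and 595 in wild type arrays and 469, 320, 247, 449 and 415 in knockout arrays (-0.53, SE 0.31; -0.28 without arrays 2 and 3). Over the 15 separated probe sets described so far, the limma adjusted p ran from 0.35 to 0.581, so none passed the threshold.

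The other 13 separated probe sets were all higher in knockout arrays, with differences of 0.28 to 0.90 and limma adjusted p of 0.575 to 0.669. They were named after their values were seen, where they appear in no list above. Tmem213 had no step at knockout arrays 2 and 3, at 112 and 89.8 in wild type arrays and 134, 138, 165, 173 and 154 in knockout arrays (0.51, SE 0.24; 0.52 without those arrays). Tmem50b (537 and 518 against 596 to 711; 0.28) and 1 of 5 tested probe sets of Tmem19 (63.5 and 59.3 against 68.5 to 93.7; 0.37) had similarly level knockout signals. The other 4 of Tmem19 overlapped between the groups, and 3 of them stepped in knockout arrays 2 and 3, at 1646 and 1548 (673 to 916 elsewhere), 913 and 786 (236 to 553) and 940 and 806 (175 to 360). Tmem117 had the step, at 75.8 and 53.7 against 94.0, 182, 201, 87.8 and 80.8 (0.74, SE 0.38; 0.35 without arrays 2 and 3). So did Tmem258, a subunit of the oligosaccharyltransferase that glycosylates proteins in the ER, at 355 and 370 against 406, 680, 710, 379 and 501 (0.49, SE 0.32; 0.22 without them), while its second tested probe set overlapped (0.14). A less bright probe set of Tmem123 gave 578 and 681 against 733, 1804, 1772, 829 and 1194 (0.90; 0.50 without them), and Tmem86a, a lysoplasmalogenase gene, gave 430 and 403 against 488, 711, 808, 446 and 448 (0.42; 0.14 without them). The others were Tmem167b (0.37), Tmem200c (0.33) and single probe sets of Tmem131l, Tmem165, Tmem170 and Tmem47, which are described with their genes.

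**Figure D2:**
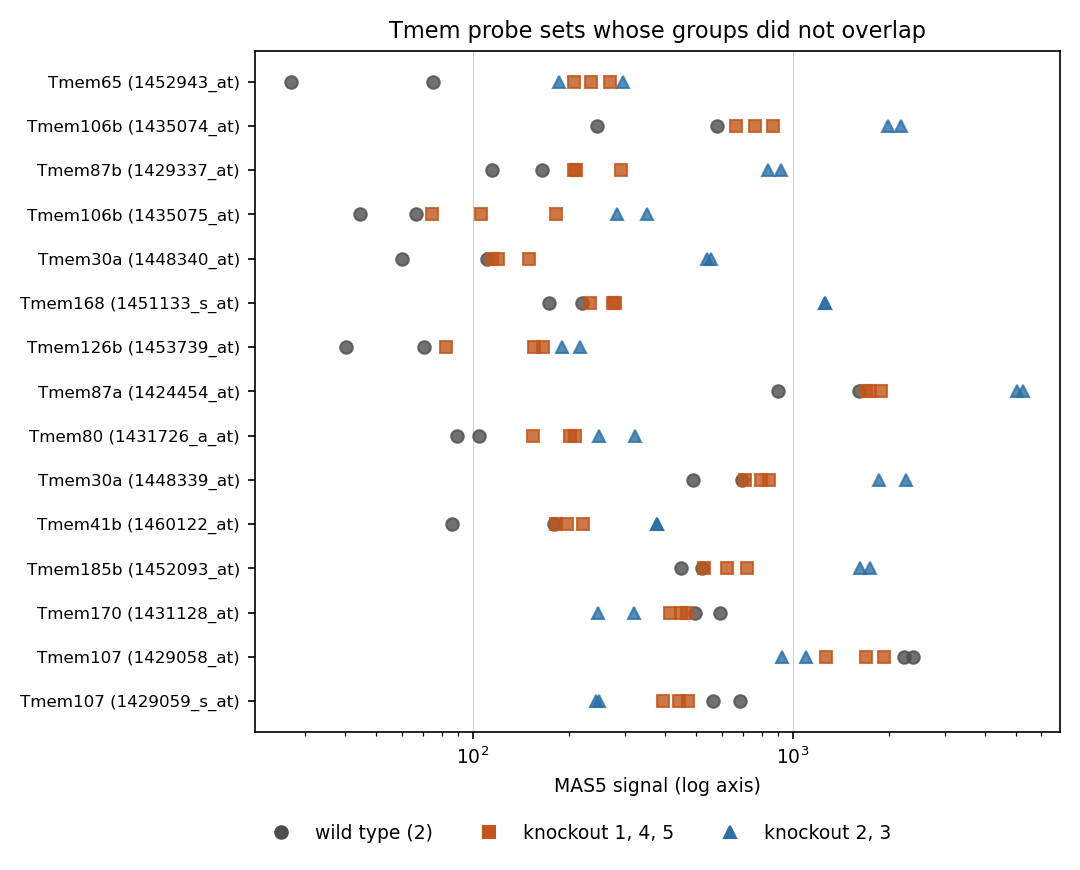
MAS5 signals on a log axis for the 12 Tmem probe sets with the largest positive and the 3 with negative differences among those whose groups did not overlap; each symbol is 1 array, with circles for wild type, squares for knockout arrays 1, 4 and 5, and triangles for knockout arrays 2 and 3. At Tmem65 the triangles (186 and 296) lie among the squares (207 to 269), whereas at Tmem87b they stand far to their right (841 and 921 against 207 to 290).

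Promoter windows are given for 5 genes as examples: Tmem87a and Tmem87b, relatives that were high together in knockout arrays 2 and 3, Tmem39a and Tmem147, ER members also higher in those arrays whose windows hold a cAMP response element, and Tmem107, which was low in them. Other Tmem genes had larger steps. The RefSeq table of assembly GRCm38.p6 held 176 of the 216 Tmem genes, 138 of them among the 166 with a tested probe set, and the 138 had 185 windows of 300 bases, from 250 before to 50 after a start. Capitals mark the GC box GGGCGG and the cAMP response element TGACGTCA on either strand. These motifs and genes were chosen after values were seen. Tmem87a lies at chr2:120404067-120404366 (minus strand), Tmem87b at chr2:128818053-128818352 (plus strand), Tmem39a at chr16:38562564-38562863 (plus strand), the one of its 2 windows with the element, Tmem147 at chr7:30729485-30729784 (minus strand) and Tmem107 at chr11:69070559-69070858 (plus strand).
Tmem87a: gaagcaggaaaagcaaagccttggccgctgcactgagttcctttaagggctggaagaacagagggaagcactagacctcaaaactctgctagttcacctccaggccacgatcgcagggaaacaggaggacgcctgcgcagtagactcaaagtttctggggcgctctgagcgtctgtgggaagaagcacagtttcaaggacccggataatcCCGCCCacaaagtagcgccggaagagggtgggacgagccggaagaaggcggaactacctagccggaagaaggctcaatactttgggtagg
Tmem87b: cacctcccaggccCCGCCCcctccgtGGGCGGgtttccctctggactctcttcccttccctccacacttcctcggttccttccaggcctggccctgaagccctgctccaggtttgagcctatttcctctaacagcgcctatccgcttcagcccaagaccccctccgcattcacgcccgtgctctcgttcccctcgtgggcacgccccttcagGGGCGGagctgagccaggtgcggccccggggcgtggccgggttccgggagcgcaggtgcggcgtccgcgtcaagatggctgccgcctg
Tmem39a: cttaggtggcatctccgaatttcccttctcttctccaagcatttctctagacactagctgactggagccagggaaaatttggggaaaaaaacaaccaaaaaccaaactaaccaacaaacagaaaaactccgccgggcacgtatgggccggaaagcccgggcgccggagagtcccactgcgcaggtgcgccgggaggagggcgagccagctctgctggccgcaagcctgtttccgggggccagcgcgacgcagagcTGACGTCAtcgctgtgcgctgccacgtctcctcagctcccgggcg
Tmem147: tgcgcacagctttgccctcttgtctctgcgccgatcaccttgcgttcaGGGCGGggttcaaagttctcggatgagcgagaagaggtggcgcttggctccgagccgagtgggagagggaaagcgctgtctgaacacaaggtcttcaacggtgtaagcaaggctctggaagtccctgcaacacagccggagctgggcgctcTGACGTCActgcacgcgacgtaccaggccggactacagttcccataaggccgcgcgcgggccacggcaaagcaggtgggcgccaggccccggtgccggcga
Tmem107: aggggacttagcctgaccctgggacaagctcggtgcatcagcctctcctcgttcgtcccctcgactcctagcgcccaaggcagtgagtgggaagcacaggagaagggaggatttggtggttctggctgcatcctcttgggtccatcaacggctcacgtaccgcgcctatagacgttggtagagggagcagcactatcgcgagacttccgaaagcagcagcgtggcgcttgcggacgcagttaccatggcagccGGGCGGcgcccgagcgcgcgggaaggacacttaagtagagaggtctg

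Searching both strands, the ER stress element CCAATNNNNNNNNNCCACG was in 0 of the 185 Tmem windows and in 0.141% of 21263 windows of protein-coding genes. The unfolded protein response element TGACGTGG was in 1.08% of Tmem windows, those of Tmem230 and Tmem248, and in 0.705% of the protein-coding ones. The palindrome TGACGTCA was in 4.86% (9 windows) and 2.23%, the GC box in 59.5% and 46.2%, and the CCAAT box CCAAT, which is part of the ER stress element, in 40.5% and 38.2%. The Tmem windows are of genes past the signal filter, while the protein-coding windows were not filtered by signal. The shares are therefore not of like sets, and the part of the filter in their gaps was not tested. Tmem87a holds 1 GC box and Tmem87b holds 3 in the windows shown.

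Grouped by what their proteins do, the Tmem genes differed in how high they stood in knockout arrays 2 and 3. All list medians were positive there, from 0.36 and 0.35 (primary cilium) to 1.12 and 1.11 (ER insertion, glycosylation and quality control). The lists were drawn up from textbook knowledge and cover 86 of the 216 genes, and in each list 0 members passed the adjusted threshold, beside 0.0296% of all tested probe sets. Counts are of probe sets, which are not independent where they share a gene. The tested genes per list ran from 5 (nuclear envelope) to 12 (mitochondrion). Of all tested probe sets 55.9% were positive. Signals given for a gene in these lists are those of its tested probe set with the highest signal, with other probe sets named as such. In the list of ER membrane insertion, glycosylation and quality control, 17 of 19 tested probe sets had a positive difference (median 0.40, beside 0.07 over all tested probe sets), and the list median was 1.12 and 1.11 log2 units above wild type in knockout arrays 2 and 3. The list median stood at 0.00, -0.18 and 0.08 in knockout arrays 1, 4 and 5. Tmem131, needed for the secretion of collagen, had signals of 3894 and 4786 in wild type arrays and 5021, 9386, 10705, 3917 and 5012 in knockout arrays (0.54, SE 0.40; 0.10 without arrays 2 and 3). Tmem39a, an ER gene that affects secretion and autophagy, read 1857 and 2926 against 2333, 5844, 5526, 2150 and 2287 (0.48, SE 0.47; -0.05 without them), and its second probe set differed by -0.04. Tmem147, a subunit of the multipass translocon, read 3722 and 1976 against 2227, 4776, 4336, 2263 and 2092. Its difference of 0.11 became -0.30 without arrays 2 and 3. For these probe sets knockout arrays 2 and 3 were the highest and the other 3 lay near or within the wild type range.

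ER and plasma membrane calcium and ion handling had 14 of 16 positive probe sets. The list had a median of 0.54, or 0.17 without knockout arrays 2 and 3. Its median was 0.87 and 0.90 in those arrays and 0.21, 0.04 and 0.41 in knockout arrays 1, 4 and 5. The 16 probe sets came from 9 genes, with 4 from Tmem38b and 3 each from Tmem64 and Tmem109. Tmem64, a regulator of the ER calcium pump SERCA2, had signals of 1670 and 4484 in wild type arrays, whose gap held all 5 knockout arrays (2903 to 4208; 0.36, SE 0.36). Its other 2 tested probe sets differed more, at 313 and 1033 against 987, 1366, 1442, 1131 and 1192 (1.06, SE 0.41, limma unadjusted p = 0.0296; 0.92 without arrays 2 and 3), the highest difference of the list, and at 971 and 2581 against 2068 to 3629 (0.85, SE 0.39; 0.75 without them). In all 3, wild type array 1 was the lowest. Tmem38b encodes TRIC-B, a cation channel that balances charge during calcium release from the ER. Its probe set with the highest signal read 1010 and 1690 in wild type arrays and 1499, 2368, 1938, 1296 and 1586 in knockout arrays (0.37, SE 0.33; 0.15 without arrays 2 and 3). Tmem109, which encodes the ER cation channel mitsugumin-23, read 1176 and 1326 against 1168, 4483, 4093, 1520 and 1847 (0.85, SE 0.52; 0.25 without them), and its other 2 probe sets differed by 0.27 and 0.78. Groups overlapped for all 3 genes.

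In the Golgi and secretory traffic list, 12 of 15 probe sets were positive, with a median of 0.37, or 0.22 without knockout arrays 2 and 3. Tmem165, a Golgi transporter of manganese and calcium needed for glycosylation, was narrowly separated: wild type arrays gave 3158 and 2946, knockout arrays 1, 4 and 5 gave 3263, 3274 and 3169, and knockout arrays 2 and 3 gave 8516 and 7538 (0.61, SE 0.44; 0.08 without arrays 2 and 3). Tmem167, an early secretory pathway gene, read 2955 and 3832 in wild type arrays and 2805 to 3759 in knockout arrays with its probe set of the highest signal (-0.10, SE 0.25). With that probe set knockout arrays 2 and 3, at 3049 and 2805, did not stand apart. They were far the highest with another 2 of its 6 tested probe sets. These read 1509 and 1495 against 280 to 786 elsewhere (0.86; 0.34 without them) and 921 and 861 against 258 to 583 (0.60; 0.22 without them). With 1 more probe set they were the highest by less, at 118 and 168 against 83 to 111 (0.11; -0.09 without them). Tmem87a and Tmem87b, described above, belong to the same list.

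Lipid handling had 20 of 21 probe sets positive (18 after quantile normalization) and a median of 0.36, or 0.15 without knockout arrays 2 and 3. These probe sets came from 10 genes, with 6 from Tmem41b and 4 from Tmem30a. Tmem135, a gene of peroxisomal and mitochondrial lipid handling, read 568 and 923 in wild type arrays and 792, 1510, 1591, 802 and 1213 in knockout arrays (0.63, SE 0.37; 0.33 without arrays 2 and 3), with 0.18 for its second probe set. The Tmem30a probe set with the highest signal gave 284 and 588 against 553, 2378, 2425, 702 and 923 (1.45, SE 0.61; 0.76 without them), and that of Tmem41b gave 1468 and 2049 against 1413, 2974, 2631, 2168 and 2328 (0.36, SE 0.33; 0.15 without them). Knockout array 1 lay inside the wild type range for Tmem135 and Tmem30a, and just below it for Tmem41b.

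Lysosomal and endosomal members were less uniform, with 11 of 17 probe sets positive and a median of 0.14, or -0.08 without knockout arrays 2 and 3 and -0.02 after quantile normalization. Tmem192, a lysosomal membrane protein gene, stayed within a narrow range, at 1694 and 1485 in wild type arrays and 1444 to 1684 in knockout arrays (-0.07, SE 0.24). Its second probe set ranged more widely, at 1648 and 1030 against 880 to 1493 (-0.13). Tmem9b read 676 and 456 against 512, 962, 919, 567 and 492 (0.24, SE 0.36; -0.09 without arrays 2 and 3), and its second probe set differed by 0.14. Tmem9, whose protein binds the V-ATPase and CLC transporters, had one of the largest spreads over the 7 arrays (SD of 1.21 log2 units). Its signals were 383 and 201 in wild type arrays, 1537 and 1342 in knockout arrays 2 and 3, and 314, 224 and 208 in the others, a difference of 0.81 (SE 0.79) that became -0.17 without arrays 2 and 3.

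Nuclear envelope members had 9 of 10 positive probe sets and a median of 0.52, or 0.14 without knockout arrays 2 and 3. Tmem209 gave 787 and 1120 in wild type arrays, 4935 and 4841 in knockout arrays 2 and 3, and 1018, 1682 and 1090 in the others (1.17, SE 0.65; 0.38 without them), and its other 2 probe sets differed by 0.93 and 0.71. Tmem43, which encodes the inner nuclear membrane protein LUMA, gave 518 and 522 against 805, 1850, 1858, 474 and 744 (0.92, SE 0.52; 0.33 without them), with knockout array 4 below the wild type pair, and its second probe set differed by 0.21. Tmem201, which encodes SAMP1, gave 1041 and 728 against 741 to 980 with its probe set of the highest signal, without a step at arrays 2 and 3 (-0.06, SE 0.27). A second probe set of Tmem201 had the step, at 430 and 388 against 508, 1674, 1778, 396 and 480 (0.91, SE 0.61; 0.16 without them), and the third differed by 0.06.

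Mitochondrial members included Tmem65 and Tmem126b, but as a list had 14 of 19 positive probe sets and a median of 0.14, or -0.04 without knockout arrays 2 and 3. Tmem126a, whose product assists complex I assembly as that of Tmem126b does, had signals of 3369 and 3480 in wild type arrays and 2911, 4826, 4642, 3387 and 3770 in knockout arrays (0.16, SE 0.27). Tmem14c, a gene of haem synthesis, read 2458 and 1929 against 1917, 3405, 2975, 1715 and 1785 (0.06, SE 0.34; -0.27 without arrays 2 and 3). For Tmem11, which shapes the inner membrane, the 2 arrays were instead the lowest of the knockout group, at 2096 and 1993 (wild type 2749 and 2357; knockout 1, 4 and 5 at 2995, 3516 and 2910; 0.05, SE 0.30).

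Primary cilium members had a negative median, -0.10, or -0.30 without knockout arrays 2 and 3 and -0.26 after quantile normalization, and 7 of 12 tested probe sets were negative. The medians of the other 8 lists were positive over the 7 arrays, of which that of the lysosomal list alone changed sign after quantile normalization. The list held both Tmem80, higher in all knockout arrays, and Tmem107, lower in all of them by 2 probe sets. Tmem231 read 890 and 1159 in wild type arrays and 1095 to 1552 in knockout arrays (0.32, SE 0.27; 0.18 without arrays 2 and 3). Tmem237 read 1411 and 1300 against 1147, 2844, 2731, 1570 and 1597 (0.45, SE 0.38; 0.07 without arrays 2 and 3). Its lone low value was knockout array 1.

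Cell surface and signalling members had 7 of 11 positive probe sets and a median of 0.13, or -0.29 without knockout arrays 2 and 3. Tmem47, a junction protein gene related to claudins, was separated between the groups, at 975 and 955 in wild type arrays and 1149, 2748, 2735, 1245 and 1689 in knockout arrays (0.88, SE 0.40, limma adjusted p = 0.575; 0.47 without arrays 2 and 3), while its second probe set overlapped (0.20). Tmem123, which encodes the mucin-like protein porimin, read 1207 and 1655 against 1409, 2926, 2768, 1731 and 1736 with its probe set of the highest signal (0.52, SE 0.35; 0.19 without them). Tmem88, an inhibitor of Wnt signalling that binds Dishevelled, was the lowest of the list. Its knockout signals were close together (1009, 934, 895, 1112 and 994), while the 2 wild type arrays lay far apart at 2097 and 1097 (-0.61, SE 0.30), so that knockout array 4 lay just above wild type array 2.

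**Figure D3:**
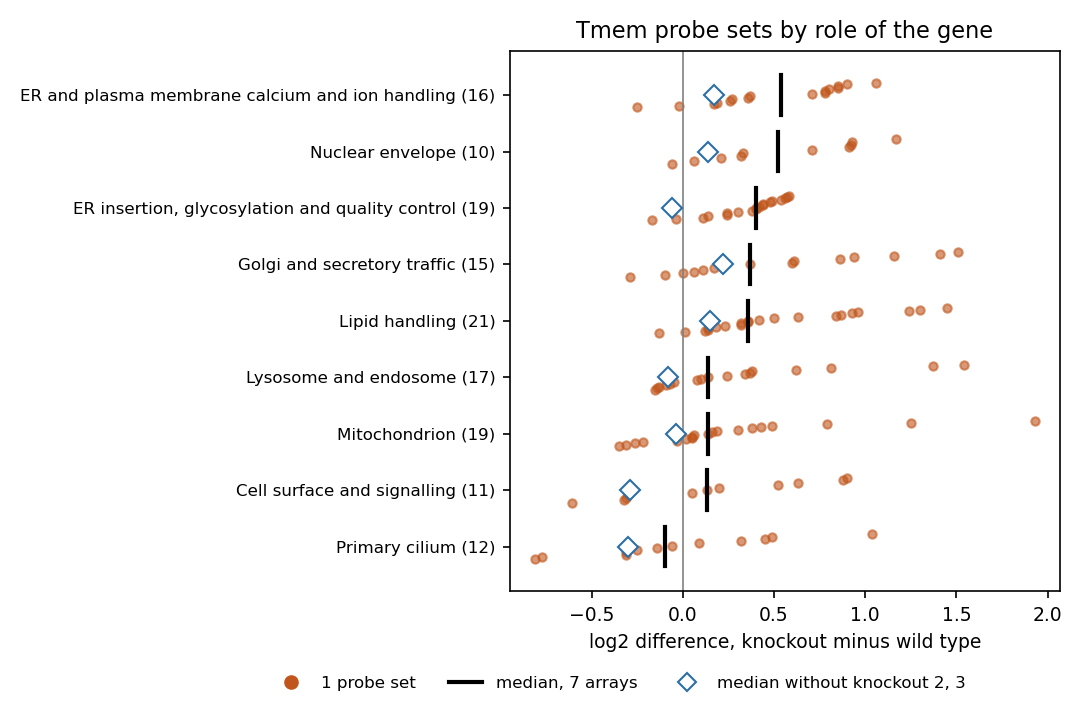
Log2 differences, knockout minus wild type, of the tested Tmem probe sets in 9 role lists, with the number of probe sets in brackets; circles are probe sets, black bars the list medians over 7 arrays and open diamonds the medians without knockout arrays 2 and 3. In every list the diamond lies to the left of the bar, by the most in the ER insertion list (0.40 and -0.06).

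The 124 tested probe sets of genes with no role list had 82 positive differences. Their median was 0.20, or -0.01 without knockout arrays 2 and 3. Some of these genes were among those of highest signal or widest spread. Tmem230 read 3522 and 3507 in wild type arrays and 3514, 4456, 4113, 4740 and 3816 in knockout arrays (0.22, SE 0.23). Tmem256 read 3709 and 4302 against 2812, 2954, 2266, 3938 and 2773 (-0.46, SE 0.27), and only knockout array 4 reached the wild type range. Tmem184c read 1382 and 3050 against 2798, 4598, 4672, 2609 and 2542 (0.68, SE 0.39; 0.36 without arrays 2 and 3). Tmem40 had the widest spread of the named probe sets, with an SD of 1.22 log2 units over the 7 arrays, and ran opposite to most of the group. Its signals were 45.8 and 44 in knockout arrays 2 and 3, 252 and 285 in wild type arrays, and 431, 412 and 327 in knockout arrays 1, 4 and 5. Its difference of -0.56 (SE 0.82) became 0.50 without arrays 2 and 3, and its other 2 probe sets were lowest in the same 2 arrays.

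Different probe sets of 1 Tmem gene did not always share a direction. Of 57 Tmem genes with 2 or more tested probe sets, 26 had only positive differences, 7 only negative ones and 24 both. In 3 genes, Tmem131l, Tmem170 and Tmem38b, differences of opposite sign lay at least 1 log2 unit apart. Tmem170 had 1 probe set higher in all 5 knockout arrays, at 603 and 1090 in wild type and 1488, 1540, 1409, 1391 and 1574 in knockout arrays (0.85, SE 0.29, limma adjusted p = 0.575), and the one described above that was lower in all 5. The first kept its 0.85 without knockout arrays 2 and 3, and its knockout signals were close together (SD 79.7). In Tmem131l, 1 probe set was higher in all 5 knockout arrays (255 and 257 in wild type, 362, 549, 514, 341 and 398 in knockout; 0.69), 1 followed knockout arrays 2 and 3 (1212 and 1330 against 425 to 566 elsewhere; 0.33), and 1 was lower on balance (133 and 69.7 against 44.9 to 79.6; -0.51).

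For Tmem38b, 3 probe sets had positive differences (0.37, 0.71 and 0.90) and the fourth a negative one (-0.25). The highest of these differences belonged to signals of 117 and 392 in wild type arrays and 338, 473, 464, 347 and 523 in knockout arrays, where wild type array 1 alone was low. The fourth probe set read 233 and 157 against 166, 240, 225, 111 and 95.6 (-0.58 without arrays 2 and 3). The probe set with the difference of 0.71 read 677 and 1070 against 1157, 1600, 1726, 1010 and 1681. The Tmem38b probe sets had no single direction, and the sources used here do not give which transcript forms they detect.

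**Figure D4:**
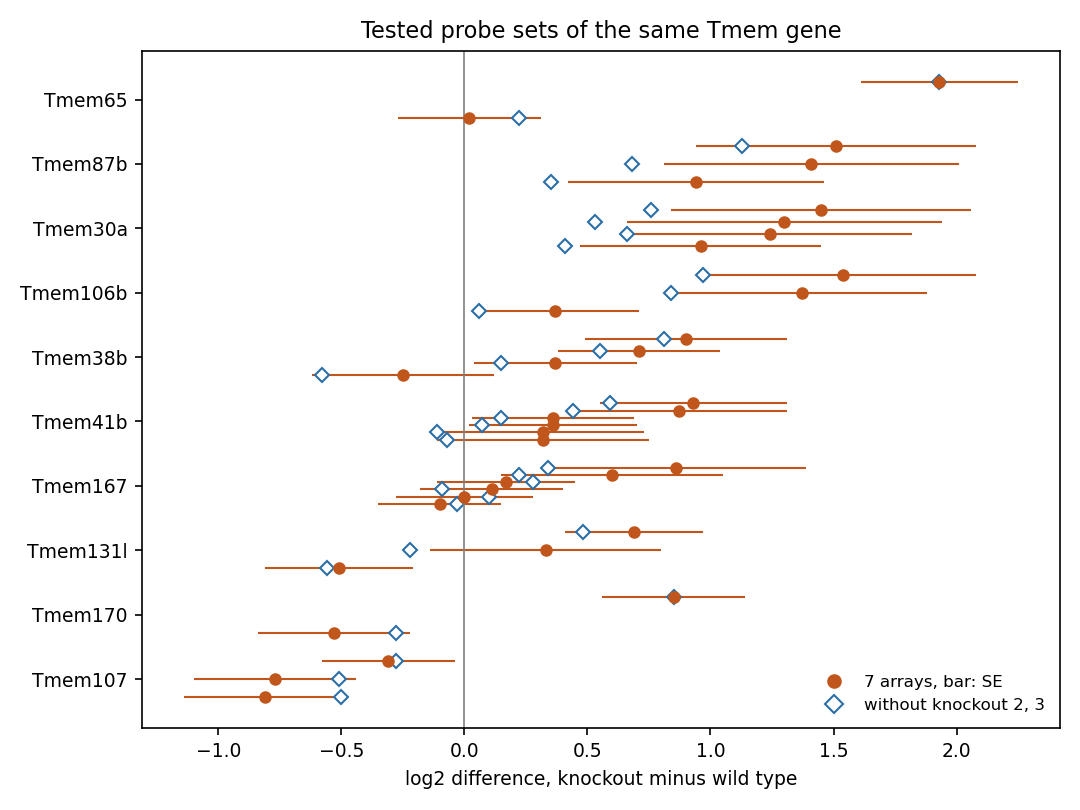
Log2 differences, knockout minus wild type, of each tested probe set of 10 Tmem genes; filled circles with bars give the limma difference and its SE over 7 arrays, and open diamonds the difference without knockout arrays 2 and 3. All 4 probe sets of Tmem30a lie right of 0 (0.96 to 1.45), while Tmem170 has 1 on each side (0.85 and -0.53).

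Lettered relatives that share a number did not always share a direction either. With 1 probe set per gene, that of the highest signal, 19 numbers had 2 or more tested lettered genes, 41 genes in all, and 12 of these families had only positive differences, 0 only negative and 7 both (11, 1 and 7 after quantile normalization). Beside Tmem30a, Tmem30b encodes another flippase subunit and read 588 and 375 in wild type arrays and 522 to 914 in knockout arrays (0.50), and Tmem30c read 135 and 98.9 against 100 to 168 (0.14). Beside Tmem106b, Tmem106a read 450 and 453 against 352 to 491 (-0.09; its second probe set 0.10) and Tmem106c read 415 and 280 against 241 to 400 (-0.14; its second probe set 0.34). Neither followed the step of Tmem106b in knockout arrays 2 and 3. Tmem87b with its probe set of the highest signal read 186 and 776 against 528 to 1703 (1.51; 1.13 without arrays 2 and 3), where wild type array 1 alone lay below the knockout range. Tmem41a read 1034 and 580 against 597 to 1202 (0.14), and the X-linked Tmem185a read 1205 and 699 against 845 to 1432 (0.20).

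A part of the group was too dim to test. Of the 377 Tmem probe sets, 113 were under the signal filter, and 50 genes had no tested probe set. Of the Tmem probe sets 70% passed the filter, beside 60% of all probe sets. The untested genes include Tmem100, a target of BMP signalling in endothelium, Tmem67, the ciliary gene for meckelin, and Tmem178, whose product restrains store-operated calcium entry. Signals on the 4 probe sets of these 3 genes ran from 2.7 to 81.2 over the 7 arrays, and detection calls were not used here.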

How the data were processed

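Biotin-labelled cRNA from 7 RNA samples was hybridised to Affymetrix Mouse 430 2.0 arrays. The deposited values are intensities from MAS5, the tool that the submitters' processing notes name without a version; their 2% trimmed mean was 500.0 and their medians 92.6 to 124.9 per array, and detection calls were not used here. Of 45101 probe sets, 64 controls were set aside. Signals were converted to log2(signal + 20.2), the pseudocount being the 20th percentile of the table, and compared with limma 3.58.1 in R 4.3.3 (trended eBayes, two-sided, Benjamini-Hochberg over 27022 probe sets, threshold 0.05). The number of arrays limits the precision. Members were all single-symbol Tmem probe sets, and all 216 genes were matched to RefSeq GRCm38.p6 by gene identifier. Named were the 12 largest differences per direction among non-overlapping probe sets, the 10 genes of highest signal, up to 3 per role list, genes whose probe sets opposed each other by 1 log2 unit, the 6 most variable, and lettered families holding one of the first kind. Others were chosen after their values were seen. Members and lists were chosen with earlier results of these data known. Same-numbered wild type and knockout arrays deviated together at r = 0.109 and -0.00979, and the numbers were not taken as pairs. Alternatives were quantile normalization, other pseudocounts and filters, no trend, array weights, the replicate number as a block, 1 probe set per gene, digits-only symbols, and leaving out arrays. Figures were drawn with matplotlib 3.10.9.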

Additional observations from a re-analysis of the deposited data

Results flagged for a closer look

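Tmem184a, a gene named only for its lettered relatives, had 1 knockout array far from the other 4: its signals were 127, 131, 118 and 117 in knockout arrays 1 to 4 and 71.1 in array 5, a gap of 0.807 of the group's range on the log2 scale against a critical value of 0.71 for 5 samples. Wild type arrays read 104 and 54.1. Among 81 probe sets examined this was the 1 exceeding the limit, and chance alone exceeds it in about 5 of 100 groups.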

How the results depend on the processing

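The number of called Tmem probe sets was 0 under each setting run. The median Tmem difference of 0.24 stayed positive, between 0.02 without knockout arrays 2 and 3 and 0.33 with the replicate number as a block, and between 0.10 and 0.33 when single arrays were left out. Knockout arrays 3, 4 and 5 share their number with no wild type array. Differences with the replicate block, here and below, therefore rest on arrays 1 and 2 of each group. Over all probe sets, 8 were called; this was 2 with 1 probe set per gene, 4 with the filter at the 60th percentile, 5 without a filter, 15 with the replicate block, 5 without knockout arrays 2 and 3, and 0 to 7 with single arrays left out, being 0 without either wild type array and 4 without knockout replicate 1. The 16 Tmem probe sets at an unadjusted p under 0.05 (6.06%, against 8.42% of all tested) became 9 with 1 probe set per gene (5.42%, 8.06%), 8 with array weights (3.03%, 5.38%), 25 without a filter (6.63%, 7.53%), 25 with the replicate block (9.47%, 8.62%), 8 without knockout arrays 2 and 3 (3.03%, 5.64%), and 7 (2.65%, 2.78%) to 32 (12.1%, 12.1%) with single arrays left out, the extremes being without wild type replicate 1 and without knockout replicate 4. The 28 that did not overlap (10.6%, 13.6%) became 17 with 1 probe set per gene (10.2%, 13.8%), 50 without knockout arrays 2 and 3 (18.9%, 20.3%), and 30 (11.4%, 14.5%) to 113 (42.8%, 50.1%) with single arrays left out, the highest without wild type replicate 2; fewer samples leave fewer orders to break. The sign was followed for 59 of the probe sets given in the text. Of these, 41 kept their sign throughout and 18 did not, none of them called. Other probe sets given in the text, among them those of Tmem213, Tmem117, Tmem258 and Tmem86a, were not in this count. The reversals listed next are of the 59. With the replicate block Tmem11 stood at -0.02 and the negative probe set of Tmem38b at 0.06. With array weights Tmem147 and Tmem14c stood at -0.11 and Tmem41a at -0.02. Without knockout arrays 2 and 3 the reversed values were -0.04 for Tmem126a, -0.22 for the Tmem131l probe set of highest signal, -0.30 for Tmem147, -0.27 for Tmem14c, -0.03 for Tmem185a, -0.02 for Tmem30c, -0.05 for Tmem39a, 0.50 for Tmem40, -0.14 for Tmem41a, -0.17 for Tmem9 and -0.09 for Tmem9b. With single arrays left out, the ranges were -0.41 to 0.13 for Tmem106c, -0.06 to 0.16 for Tmem11, -0.34 to 0.57 for Tmem147, -0.12 to 0.23 for Tmem14c, -0.29 to 0.09 for Tmem167, -0.18 to 0.58 for Tmem185a, -0.16 to 0.03 for Tmem192, -0.31 to 0.20 for Tmem201, -0.05 to 0.33 for Tmem30c, -0.50 to 0.01 for Tmem38b, -0.26 to 0.55 for Tmem41a, -0.35 to 1.06 for Tmem64 and -0.03 to 0.52 for Tmem9b. Outside the 59, values also reversed without knockout arrays 2 and 3. Examples were -0.11 for 1 probe set of Tmem19, and -0.16 and -0.22 for the second probe sets of Tmem47 and Tmem9b. The cause of these changes was not tested. Where 1 wild type array is left, it is assumed to vary like the knockout group. Dim probe sets, near the 20.2 added before the log, have understated differences.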
